A study of Mus musculus with 23 samples.

Results

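The comparison described here set forebrains of mouse embryos homozygous for a changed Meis1 allele against forebrains of their wild type relatives at E12.5, in mid-gestation. It drew on 10 of the 23 arrays of the study, 5 from homozygotes (3 males and 2 females) and 5 from wild types (3 males and 2 females). The arrays were chosen by their labels for age, tissue and genotype, and the litter was read from the prefix of the mouse id. All embryos were of the strain C57BL/6J and came from 4 litters, called 509, 542, 549 and 551. Litter 549 held 2 homozygotes, 2 heterozygotes and no wild type, so 3 litters held both genotypes. The 6 heterozygous embryos entered the fit so that the litters were better estimated, and 7 arrays of adult brain were used only where stated. The adult arrays were of whole brain from males aged 23 weeks, 3 wild types and 4 heterozygotes. The labels give the genotype as homozygote or wild type and do not say how the allele was changed. They name the forebrain as the tissue, whereas the title of the study speaks of ganglionic eminences. Total RNA was converted to biotin-labelled cRNA and hybridised to Illumina bead arrays with 25697 probes.

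Meis1 is a homeodomain transcription factor of the TALE class, which binds DNA together with the Pbx proteins and, in some regions of the body, with Hox proteins. In the embryonic forebrain it is known from the ganglionic eminences, the ventral domes whose progenitors give rise to striatal neurons and to the inhibitory interneurons of the cortex. In blood it is known from stem cells and from the megakaryocytes that shed platelets. Human MEIS1 is the gene most strongly associated with restless legs syndrome. The comparison asked how expression across the genome differs in embryos that carry the altered allele on both chromosomes.

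Values are log2 signals after background correction and quantile normalization, and differences are homozygote minus wild type from a limma fit with litter and sex as terms. After removal of probes near background, 14340 probes for 9731 genes were tested. Between 13714 and 13926 probes were detected on homozygote arrays and between 13446 and 13794 on wild type arrays, and the sex-linked genes fitted the sex label of 16 of 16 arrays. The largest component of variation held 39.6% of the variance, of which 4.02% went with genotype and 91.3% with litter. The ventral forebrain genes Dlx1, Dlx2 and Nkx2-1 and the forebrain genes Lhx2 and Six3 were detected on all 16 embryonic arrays. The probes for Emx2 and Gsx2 were detected on none. Of the hindbrain and spinal cord markers, Hoxa2, Hoxb4, Hoxa5 and Hoxb5 were detected on 0 arrays, Hoxb3 on 1, Hoxc8 on 3 and Hoxb2 on 13. P-values measure the spread between these embryos, and a smaller number of cells of one type cannot be told apart from less RNA per cell in such bulk tissue.

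Meis1 itself, on chromosome 11, fell in the homozygotes. In the order male 1, female 1, male 2, male 3 and female 2, its log2 signal was 8.96, 8.73, 8.43, 8.93 and 8.95 in homozygotes. In the same order of sex and number, it was 9.75, 9.94, 10.12, 10.17 and 9.93 in wild types. Every homozygote lay below every wild type. The difference was -1.22 ± 0.12 (SE, n = 5 each, adjusted p = 0.000287 by limma), which leaves 0.430 of the wild type signal. It was -1.19 in litter 509, -1.10 in litter 542 and -1.41 in litter 551. The transcript was detected on all 5 homozygote arrays, and the sources used here do not place the probe relative to the changed sequence. In adult brain, the heterozygotes differed from wild types at Meis1 by -0.62 ± 0.19 on the log2 scale.

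At an adjusted p under 0.05, 1 gene rose in the homozygotes (0.0103% of the genes tested) and 5 fell (0.0514%). By probe, 1 rose (0.00697%) and 6 fell (0.0418%), because Ppbp was read by a pair of probes. Besides Meis1, the genes that fell were Ppbp, Treml1, Gp9 and Alox12, which are known from platelets, and the gene that rose was Lipa. The stretches of 250 bases before the start of Meis1, Lipa, Gp9 and Treml1 are shown because these called genes can be read against the 6-base core that Meis proteins bind, TGACAG. They come from RefSeq (GRCm38.p6) and are written from 5′ to 3′ on the strand of the gene, with capitals marking TGACAG on either strand (CTGTCA on the strand shown) and GATAA, the core that GATA factors bind.
Meis1: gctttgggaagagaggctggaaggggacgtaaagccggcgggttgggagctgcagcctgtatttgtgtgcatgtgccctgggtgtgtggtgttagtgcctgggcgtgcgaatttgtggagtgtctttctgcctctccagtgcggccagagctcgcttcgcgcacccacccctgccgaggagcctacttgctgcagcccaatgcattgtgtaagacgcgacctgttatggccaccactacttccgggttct
Lipa: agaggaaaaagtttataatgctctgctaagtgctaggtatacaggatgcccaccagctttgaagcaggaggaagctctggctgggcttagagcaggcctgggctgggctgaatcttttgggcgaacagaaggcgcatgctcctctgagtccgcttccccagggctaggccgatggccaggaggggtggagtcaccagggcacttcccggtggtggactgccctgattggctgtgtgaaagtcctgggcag
Gp9: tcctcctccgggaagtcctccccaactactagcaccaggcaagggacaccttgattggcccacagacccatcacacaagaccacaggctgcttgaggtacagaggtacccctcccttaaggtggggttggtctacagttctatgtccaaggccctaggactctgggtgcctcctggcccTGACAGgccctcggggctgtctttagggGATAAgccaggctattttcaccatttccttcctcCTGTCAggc
Treml1: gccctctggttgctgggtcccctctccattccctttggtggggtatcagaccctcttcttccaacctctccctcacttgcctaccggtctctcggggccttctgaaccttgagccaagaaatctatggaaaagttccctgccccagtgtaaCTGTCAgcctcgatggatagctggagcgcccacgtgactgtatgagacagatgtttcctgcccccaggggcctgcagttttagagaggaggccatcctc
The windows are chr11:19018970-19019219 on the minus strand for Meis1 and chr19:34527475-34527724 on the minus strand for Lipa. They are chr6:87777820-87778069 on the plus strand for Gp9 and chr17:48359666-48359915 on the plus strand for Treml1. The Gp9 window held TGACAG on the gene's strand 71 bases before the start, the same letters on the opposite strand 9 bases before it, and GATAA 43 bases before it. The Treml1 window held TGACAG on the opposite strand 99 bases before the start. Of 32817 promoter windows of the same length, 5204 (15.9%) held TGACAG and 7413 (22.6%) held GATAA or its complement TTATC. The windows of the called genes Ppbp and Alox12, not shown, held neither motif, nor did those of Meis1 and Lipa. Among the 31 genes named for their change, 25 had a promoter in the table, of which 4 held TGACAG and 5 held GATAA. Such a match is a description of the letters and shows no binding.

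Lipa, on chromosome 19, encodes lysosomal acid lipase, which splits cholesteryl esters and triglycerides inside lysosomes. Its log2 signal was 6.72, 6.53, 7.18, 7.13 and 6.83 in the homozygotes in the order given above, against 5.93, 5.97, 6.38, 6.54 and 6.47 in the wild types. The ranges touched, since homozygote female 1 lay just under wild type male 3. The difference was 0.76 ± 0.12 (SE, n = 5 each, adjusted p = 0.0352 by limma), a ratio of 1.69. By litter, the difference was 0.75 in 509, 0.33 in 542 and 1.23 in 551. The call held in 9 of 34 alternative settings, with adjusted p from 0.0259 to 0.843, and was lost when any of 13 of the 16 embryos was left out. In adult brain, the heterozygotes differed from wild types at Lipa by 0.01 ± 0.18. Of 30 lysosomal genes tested, Lipa included, 13 were higher and 17 lower, with a median of -0.02.

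The 4 genes of the platelet group had low or undetected signal in homozygotes. Ppbp encodes a chemokine precursor stored in platelet granules. Its log2 signal was 4.91, 4.80, 5.29, 4.49 and 5.24 in homozygotes, against 8.73, 8.25, 6.52, 7.42 and 8.09 in wild types, a difference of -2.80 ± 0.23 (adjusted p = 8.96e-05 by limma). It was detected on 1 of 5 homozygote arrays. The second Ppbp probe was not well above background on any homozygote array where the signal was therefore lower than in wild types by a factor of at least 3.68 (adjusted p = 0.000287 by limma). Treml1, a receptor of platelet granule membranes, had 4.80, 4.84, 5.73, 4.95 and 4.95 in homozygotes, against 7.81, 7.59, 6.54, 6.86 and 7.60 in wild types. Gp9, a chain of the receptor for von Willebrand factor, had 5.33, 4.92, 5.10, 5.14 and 5.19 in homozygotes, against 6.66, 6.53, 6.09, 6.23 and 6.71 in wild types. Neither gene's groups overlapped, and each was detected on 1 of 5 homozygote arrays and on 5 of 5 wild type arrays, so the homozygote level lay near background. The differences were -2.18 ± 0.25 for Treml1 (adjusted p = 0.00166 by limma) and -1.37 ± 0.19 for Gp9 (adjusted p = 0.00856). Without background correction they were -0.84 for Treml1 and -0.43 for Gp9 (adjusted p = 0.0682 and 0.178), and the size of either difference is therefore uncertain. Alox12, the platelet 12-lipoxygenase, had 5.77, 5.76, 5.87, 5.16 and 6.08 in homozygotes, against 7.32, 7.75, 6.11, 6.76 and 7.29 in wild types. Its difference was -1.35 ± 0.19 (adjusted p = 0.00889 by limma). Without homozygote male 2, the adjusted p was 0.0722 for Gp9 and 0.0925 for Alox12, and without wild type female 2 it was 0.0505 for Alox12. Of 15 platelet genes tested, 14 were lower and 1 was higher, with a median of -0.71, which was -0.23 without background correction and -0.92 from the deposited processed table.

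**Figure D1:**
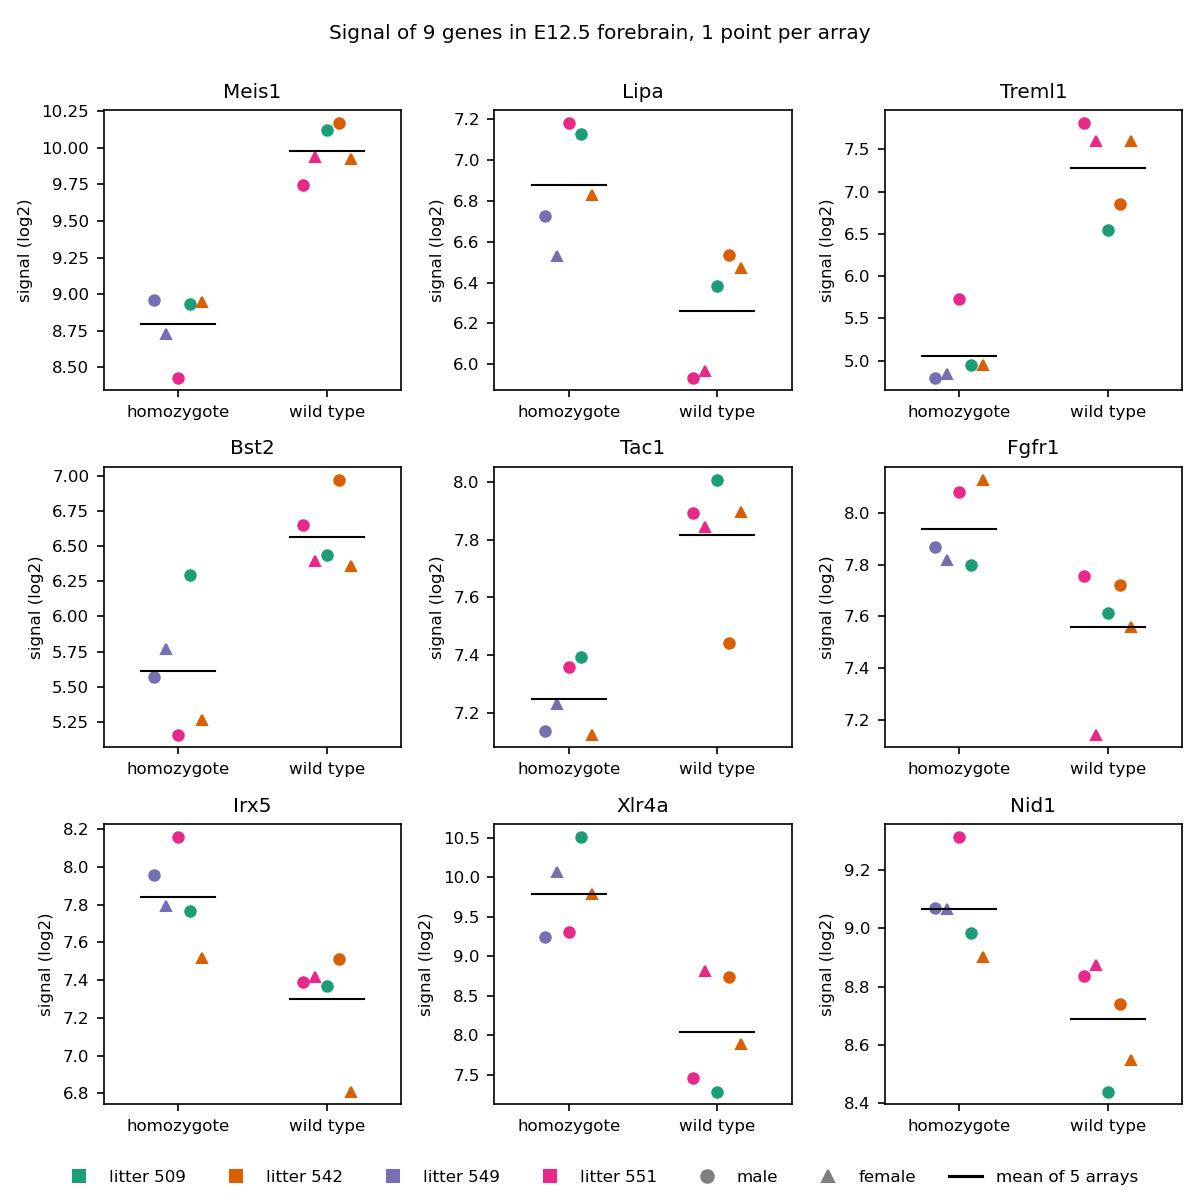
Log2 signal of 9 genes on the 10 arrays, with the 5 homozygotes left of the 5 wild types in every panel, 1 point per array coloured by litter and shaped by sex, and a line at the mean of 5 arrays. In the Meis1 panel the homozygotes lie between 8.43 and 8.96 and the wild types between 9.75 and 10.17, and in the Xlr4a panel the homozygotes lie between 9.25 and 10.51 and the wild types between 7.29 and 8.82.

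Across the genome, differences were small relative to their error. Between the 5th and the 95th percentile, the log2 difference of the 9731 genes ran from -0.33 to 0.31, with a median of -0.00. The median size of a difference was 0.133, and the median SE was 0.132. At an unadjusted p under 0.05, 518 genes (5.32%) were higher and 629 (6.46%) were lower in homozygotes. These counts depended on the arrays used. With only the homozygotes and wild types, 280 were higher and 332 lower, and without homozygote male 2, 359 were higher and 331 lower. The groups did not overlap for 26 higher genes (0.267%) and for 60 lower genes (0.617%). Past a 2-fold difference lay 1 higher gene, Xlr4a, and 7 lower genes, which were Ppbp, Treml1, Gp9, Alox12, Meis1, Bst2 and Pf4. The effect of genotype differed between males and females at 0 of 14340 probes after adjustment (0%) and at 435 probes (3.03%) at an unadjusted p under 0.05.

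**Figure D2:**
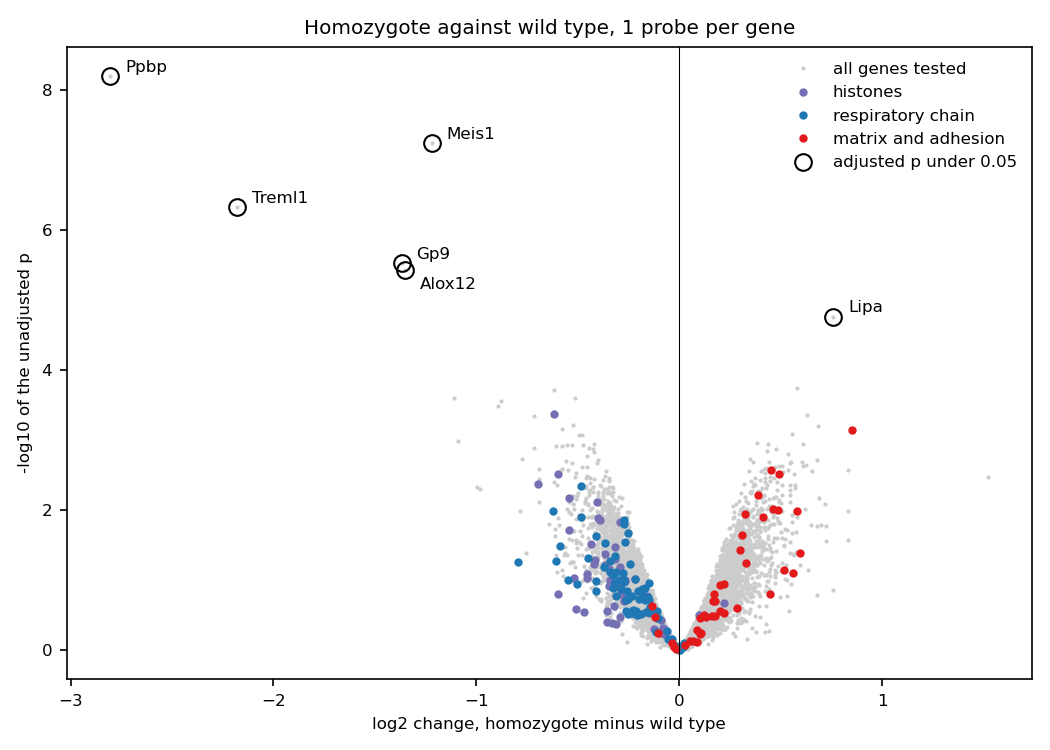
Log2 difference, homozygote minus wild type, on the horizontal axis against minus log10 of the unadjusted p for all 9731 genes, 1 point per gene, with histones, respiratory chain genes and matrix genes in colour. The 6 circled genes passed the adjusted threshold, with 5 on the left between -2.80 and -1.22 and Lipa on the right at 0.76, while most histone and respiratory chain genes lie left of 0 and most matrix genes right of it.

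The genes described next were chosen for groups that did not overlap and for the smallest p-values in their direction. The choice also required the same sign in each of the 3 litters with both genotypes. None of them passed the adjusted threshold (adjusted p from 0.2498 to 0.381 by limma). They are given as values. Among the higher genes, Fgfr1 encodes a receptor for fibroblast growth factors. It had 7.87, 7.82, 8.08, 7.80 and 8.13 in homozygotes, against 7.76, 7.14, 7.61, 7.72 and 7.56 in wild types, a difference of 0.48 ± 0.12. Irx5, an Iroquois homeobox gene, had 7.95, 7.79, 8.16, 7.77 and 7.52 in homozygotes, against 7.39, 7.42, 7.37, 7.51 and 6.81 in wild types, a difference of 0.50 ± 0.14. In litters 509, 542 and 551, Fgfr1 differed by 0.19, 0.49 and 0.63, and Irx5 by 0.40, 0.36 and 0.76. Nid1, whose protein nidogen links laminin and collagen IV in basement membranes, was higher by 0.39 ± 0.12.

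Pfkp, a glycolytic phosphofructokinase, was higher by 0.42 ± 0.12. Pdha1, a subunit of pyruvate dehydrogenase, had 11.71, 11.99, 11.88, 11.74 and 11.74 in homozygotes, against 11.21, 11.49, 11.55, 11.59 and 11.36 in wild types, a difference of 0.39 ± 0.12. Scd2, a desaturase that makes monounsaturated fatty acids, was higher by 0.40 ± 0.12, and Tbc1d1, a Rab GTPase-activating protein, by 0.36 ± 0.12. Dhx29, a helicase that helps ribosomes scan structured messages, had 8.68, 8.67, 8.77, 8.74 and 8.997 in homozygotes, against 8.58, 8.27, 8.39, 8.57 and 8.20 in wild types, a difference of 0.43 ± 0.11. Secisbp2, needed to insert selenocysteine, was higher by 0.41 ± 0.13, and Gtpbp4, a GTPase of ribosome assembly, by 0.27 ± 0.09. Nup160, of the nuclear pore, was higher by 0.37 ± 0.11, and Ints5, of the Integrator complex, by 0.27 ± 0.09. Scrn1 and Tmem255a were higher by 0.48 ± 0.15 and 0.54 ± 0.15.

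Xlr4a, from a family of X-linked genes with near-identical copies, had the largest difference upward. Its log2 signal was 9.25, 10.06, 9.31, 10.51 and 9.78 in homozygotes, against 7.46, 8.82, 7.29, 8.73 and 7.89 in wild types, a difference of 1.52 ± 0.43. Its spread within a genotype was wide, and which copy of the family the probe read is uncertain. By litter, the Xlr4a difference was 3.22 in 509, 1.47 in 542 and 1.17 in 551.

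Among the lower genes outside the platelet group, Bst2 encodes tetherin, an interferon-induced protein that holds enveloped viruses at the cell surface. Its log2 signal was 5.57, 5.77, 5.16, 6.29 and 5.26 in homozygotes, against 6.65, 6.39, 6.44, 6.97 and 6.36 in wild types, a difference of -1.11 ± 0.23. The difference was -0.14 in litter 509, -1.40 in litter 542 and -1.36 in litter 551. Tac1, the precursor of substance P, had 7.13, 7.23, 7.36, 7.39 and 7.12 in homozygotes, against 7.89, 7.84, 8.01, 7.44 and 7.90 in wild types. The Tac1 difference was -0.52 ± 0.12, and it lay between -0.61 and -0.51 in the 3 litters. Calb2, which encodes calretinin, a calcium-binding protein of interneurons, was lower by 0.36, with 9.25, 9.29, 9.44, 9.49 and 9.53 in homozygotes, against 9.71, 9.75, 9.98, 9.55 and 9.77 in wild types.

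Mif4gd encodes a protein that assists translation of histone messages. It had 8.22, 8.42, 8.53, 7.75 and 8.14 in homozygotes, against 8.75, 8.97, 8.54, 8.63 and 8.53 in wild types, a difference of -0.51 ± 0.11. Ptpn18, a tyrosine phosphatase, differed by -0.89 ± 0.19 and was detected on 2 of 5 homozygote arrays and on 5 of 5 wild type arrays. Pf4, platelet factor 4, differed by -1.09 ± 0.27. The myeloid genes Plac8 and Tyrobp, which encodes the adaptor DAP12, differed by -0.55 ± 0.15 and -0.45 ± 0.13. Prr7 and Yipf3 differed by -0.38 ± 0.12 and -0.34 ± 0.10. For 6 of these genes other tested probes lay closer to 0. The other probes gave 0.17 for Fgfr1, 0.06 for Pfkp, 0.10 and 0.20 for Scrn1, -0.03 for Mif4gd, -0.18 for Calb2, and -0.14 and -0.09 for Yipf3.

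Histone genes formed one of the most uniform groups. The core and linker histones package DNA, and most of their genes are short, lack introns and are transcribed as cells copy their genomes. Of 52 histone genes tested, 49 were lower in homozygotes and 3 were higher, with a median difference of -0.32, against 4934 lower and 4797 higher genes overall. At an unadjusted p under 0.05, 13 were lower and none was higher, against 6.46% lower and 5.32% higher over all genes. No histone gene passed the adjusted threshold. H2bc14 had 9.66, 9.22, 8.90, 9.32 and 9.38 in homozygotes, against 9.34, 9.70, 10.07, 9.66 and 10.02 in wild types, a difference of -0.62 ± 0.14. H4c18 differed by -0.70 ± 0.21, H2bu2 by -0.60 ± 0.17 and H2bc4 by -0.54 ± 0.17. The exceptions were H1f10 at 0.22, H3f3a at 0.10 and H2aj at 0.02, and of these H3f3a belongs to the H3.3 genes, which are expressed outside DNA replication. The variants H2az1 at -0.08 and H2ax at -0.09 also lay near 0. So did H2bc18 at -0.10 and H4c4 at -0.12, which are not variants. Of 30 genes of DNA replication itself, 12 were higher and 18 lower, with a median of -0.02. Mcm6 (0.30), Rrm1 (0.33) and Mcm4 (0.25) were the 3 at an unadjusted p under 0.05, all higher (10%, against 5.32% of all genes). Mitosis genes had a median of -0.04, with 7 of 18 higher.

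The histone values varied among the arrays of each genotype. Each array's mean over the 52 genes, centred on the 16 embryonic arrays, was 0.13, -0.50, -0.54, -0.01 and -0.02 in homozygotes, against -0.33, 0.04, 0.13, 0.08 and 0.31 in wild types. Homozygote female 1 and male 2 and wild type male 1 were the lowest of all, and the genotypes overlapped. With these 3 arrays left out, a choice made after seeing the values, the median difference was -0.16. Leaving out homozygote male 2 alone gave -0.20, and leaving out homozygote female 2 gave -0.41. By litter, the median was -0.14 in 509, -0.15 in 542 and -0.47 in 551, with 38, 41 and 46 of the 52 genes lower.

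The respiratory chain, whose complexes in the inner mitochondrial membrane pass electrons to oxygen and make ATP, showed the same direction. Of 72 nuclear genes tested, 68 were lower and 4 higher, with a median of -0.25. At an unadjusted p under 0.05, 12 (16.7%) were lower, against 6.46% of all genes. In complex I, 31 of 32 subunits were lower, with Ndufb4 at -0.62 ± 0.21 and Ndufb5 at -0.49 ± 0.17. In complex II, 3 of 3 were lower, with Sdhc at -0.27 ± 0.10. Complex III with cytochrome c had 7 of 8 lower, complex IV had 12 of 12, and the ATP synthase, complex V, had 14 of 15 lower, with Atp5a1 at -0.48 ± 0.14. Complexes were read from the gene symbols, which did not place all of the 72 genes. Medians of the 5 complexes lay between -0.27 and -0.23. The array means were 0.07, -0.39, -0.46, -0.09 and 0.04 in homozygotes, against -0.21, 0.13, -0.01, 0.04 and 0.22 in wild types. The lowest 3 arrays were those lowest in histone signal. Without them the median was -0.11, and without homozygote male 2 alone it was -0.14. The litter medians were -0.06 in 509, -0.10 in 542 and -0.42 in 551.

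**Figure D3:**
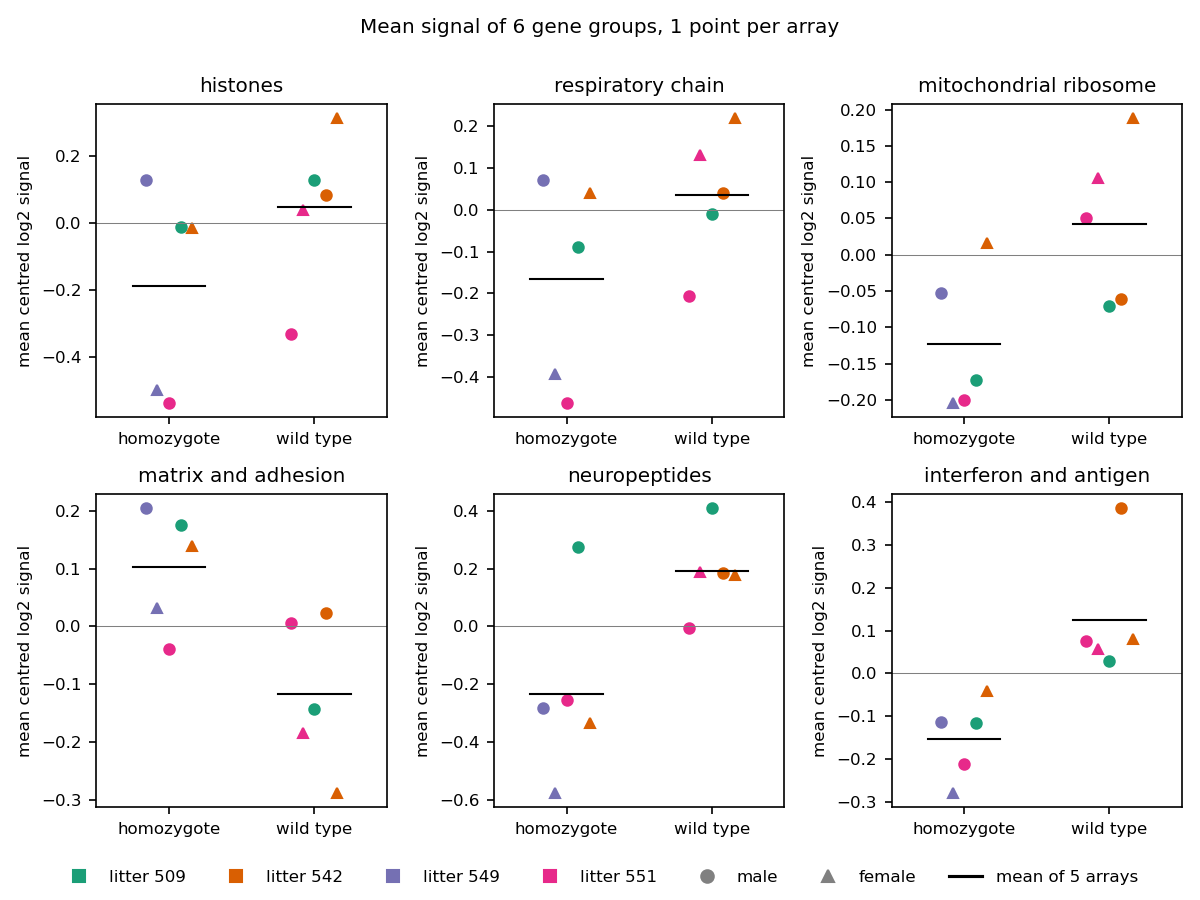
Mean over the members of 6 gene groups of the log2 signal centred on the 16 embryonic arrays, with the 5 homozygotes left of the 5 wild types, 1 point per array coloured by litter and shaped by sex, and a line at the mean of 5 arrays. Histones run from -0.54 to 0.13 in homozygotes and from -0.33 to 0.31 in wild types, so the genotypes overlap, whereas the interferon and antigen group runs from -0.28 to -0.04 in homozygotes and from 0.03 to 0.39 in wild types. The latter group includes Bst2, which was named because its values did not overlap between genotypes.

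Genes for proteins of the mitochondrial ribosome, which translates the few messages of the mitochondrial genome, were lower in 63 of 68 cases, with a median of -0.20. At an unadjusted p under 0.05, 14 (20.6%) were lower, against 6.46% of all genes. All 24 genes of this ribosome's small subunit were lower, with Mrps26 at -0.56 ± 0.15 and Mrps15 at -0.49 ± 0.17. Of its large subunit, 39 of 44 were lower, with Mrpl2 at -0.35 ± 0.11 and Mrpl14 at -0.42 ± 0.15. Mrps26 had 9.76, 9.48, 9.39, 9.50 and 9.31 in homozygotes, against 10.04, 10.21, 9.56, 9.83 and 9.97 in wild types. Without the 3 arrays the median was -0.14. Cytosolic ribosomal protein genes were lower in 47 of 52 cases, with a median of -0.13, which was -0.05 without the 3 arrays. Rps26 differed by -0.41 ± 0.18 and Rpl29 by -0.33 ± 0.14. Proteasome genes were lower in 24 of 35 cases, with a median of -0.09. Psmd9 and Psmb10 differed by -0.58 ± 0.14 and -0.50 ± 0.15. Oxidative stress genes were lower in 19 of 25 cases, with a median of -0.13 and with Txn1, thioredoxin, at -0.69 ± 0.22 and Txnrd1, a thioredoxin reductase, at -0.37 ± 0.13.

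These groups share short genes, and gene length moved with the difference across the genome. With the genes ranked by the span of their locus (GRCm38.p6) and divided into 5 classes of equal size, the median span was 4.01, 11.03, 21.8, 42.0 and 115 kb. The median difference by class was -0.12, -0.04, 0.01, 0.05 and 0.07, and the share of genes higher in homozygotes was 26.7%, 40.6%, 51.9%, 61.0% and 66.2%. At an unadjusted p under 0.05, 39 of the 1946 genes of the shortest class were higher and 260 lower. Of the 1946 genes of the longest class, 179 were higher and 45 lower at that level. In the shortest class the litter medians were -0.08 in 509, -0.03 in 542 and -0.16 in 551, and in the longest they were 0.09, -0.02 and 0.07. On each array, the median centred signal of the shortest class minus that of the longest ran from -0.225 to 0.047 over homozygotes. It ran from -0.080 to 0.189 over wild type arrays, so the genotypes overlapped. Histone genes had a median span of 0.501 kb, respiratory chain genes 7.11 kb, mitochondrial ribosomal genes 7.81 kb and cytosolic ribosomal genes 3.31 kb. Neuropeptide genes, which were also lower, had 6.33 kb. Among lists that leaned upward, it was 90.3 kb for collagens, 61.5 kb for cadherins and 49.6 kb for fibroblast growth factor genes. It was 42.7 kb for Wnt genes and 35.5 kb for matrix genes. Of other upward lists, the meningeal one had 16.8 kb and the diencephalic one 6.44 kb. After the difference that goes with span was subtracted, which was a choice made after seeing the values, the medians were -0.17 for histones, -0.16 for the respiratory chain, -0.14 for the mitochondrial ribosome and -0.04 for the cytosolic ribosome. They were -0.04 for the proteasome and -0.05 for the oxidative stress genes, whose median was -0.06 without wild type female 2. RNA quality was not measured in the files, and its part in this pattern was not tested.

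**Figure D4:**
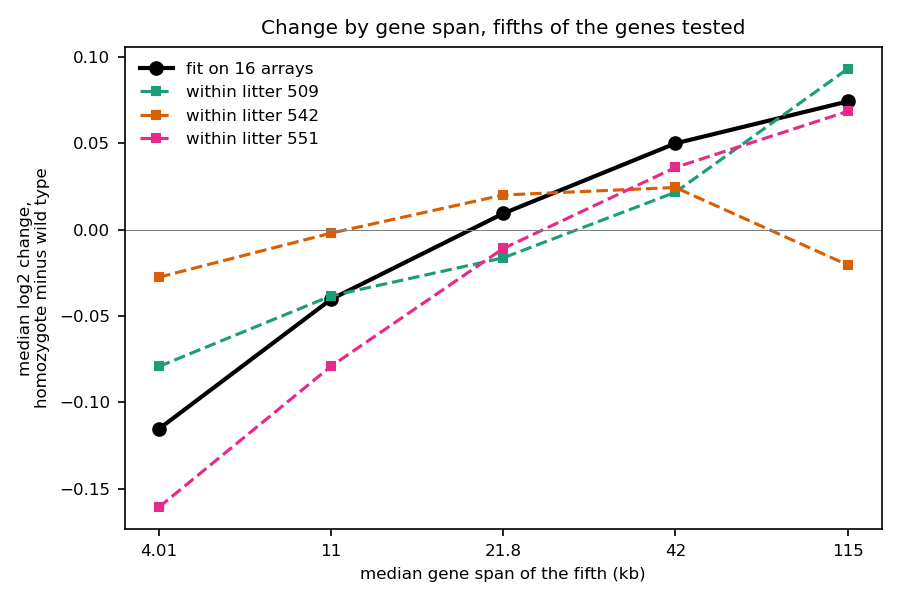
Median log2 difference, homozygote minus wild type, for genes in 5 classes of locus span, with the median span of each class in kb on the horizontal axis, from the fit on 16 arrays and within each of the 3 litters that held both genotypes. The fit runs from -0.12 in the shortest class to 0.07 in the longest, while litter 542 stays between -0.03 and 0.02.

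Neuropeptide genes were lower in 10 of 12 cases, with a median of -0.45. At an unadjusted p under 0.05, 6 (50%) were lower, against 6.46% of all genes. Sst encodes somatostatin, the peptide of interneurons that arise in the medial ganglionic eminence. It had 8.88, 8.41, 8.56, 9.46 and 8.25 in homozygotes, against 8.83, 9.35, 9.64, 9.52 and 9.36 in wild types, a difference of -0.69 ± 0.20. Pmch, the precursor of melanin-concentrating hormone in the lateral hypothalamus, differed by -0.69 ± 0.19. Its values were 6.47, 6.16, 6.66, 7.19 and 6.26 in homozygotes, against 7.05, 7.11, 7.60, 7.22 and 7.50 in wild types. For both genes homozygote male 3, of litter 509, was the highest homozygote and lay within the wild type range. Cartpt, a hypothalamic and striatal peptide precursor, differed by -0.98 ± 0.30, Trh, thyrotropin-releasing hormone, by -0.44 ± 0.13, and Cck, cholecystokinin, by -0.45 ± 0.17. Npy at -0.50 ± 0.31 had a larger error, and Adcyap1 and Oxt at 0.14 and 0.06 were the 2 higher members. The litter medians were -0.03 in 509, -0.44 in 542 and -0.36 in 551. Without background correction the median was -0.14.

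Among the genes that mark regions of the brain, the median was 0.01 over 19 genes of the lateral ganglionic eminence and striatum, -0.07 over 11 of the medial eminence, -0.02 over 15 of the dorsal pallium and -0.00 over 20 of the cortical hem and choroid plexus. Dlx1, a homeobox gene of the ventral forebrain, differed by 0.13 ± 0.18, Dlx2 by -0.11 ± 0.19 and Nkx2-1, of the medial eminence, by -0.08 ± 0.18. Their groups overlapped. The 7 caudal eminence genes had a median of -0.00, with Nr2f2, a nuclear receptor that marks this eminence, at 0.47 ± 0.19. Nr2f2 had 8.97, 9.15, 8.71, 9.18 and 9.23 in homozygotes, against 7.22, 8.07, 8.88, 9.05 and 9.06 in wild types. The 2 low wild types were both of litter 551, in which homozygote male 2 at 8.71 was also the lowest homozygote. Genes of the diencephalon, hypothalamus and midbrain were higher in 15 of 19 cases, with a median of 0.07. Of the 19, 2 were higher at an unadjusted p under 0.05 and none was lower, against 5.32% and 6.46% of all genes. These were En1 and Irx5, which was already named because its groups did not overlap. The median of this list was -0.06 without homozygote male 2 and 0.29 without homozygote female 2. It was 0.15 in litter 509, -0.14 in 542 and 0.41 in 551, with 6, 14 and 3 of the 19 genes lower. Gsx1, a progenitor gene of the eminences, differed by -0.34 ± 0.14, and Foxp2, of striatal projection neurons, by 0.45 ± 0.21.

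Radial glia, the progenitors that line the ventricle, had 11 of 21 marker genes higher, with a median of 0.05 and none at an unadjusted p under 0.05. Nes differed by 0.16 ± 0.16 and Vim by 0.14 ± 0.13. Young neuron genes had 9 of 20 higher and a median of -0.04, with 3 (15%, against 6.46% of all genes) lower at an unadjusted p under 0.05. Among them, Gap43, a growth cone protein, differed by -0.46 ± 0.13, Stmn3 by -0.34 ± 0.10 and Nefm, the medium neurofilament, by -0.35 ± 0.16. Synaptic vesicle genes had a median of -0.02, with Vamp2, a SNARE protein of vesicles, at -0.51 ± 0.15. GABA genes had a median of -0.07, with Slc32a1, the vesicular GABA transporter, at -0.31 ± 0.14, and glutamate genes had a median of -0.03. Axon guidance genes were higher in 30 of 47 cases, with a median of 0.09, and the netrin receptor genes Unc5a and Unc5b differed by 0.41 ± 0.12 and 0.38 ± 0.16. The axon guidance median was 0.14 in litter 509, -0.04 in 542 and -0.004 in 551. Of the 47 genes, 22 fell in the longest span class, in which 66.2% of the genes were higher. Potassium channel genes were lower in 22 of 31 cases, with a median of -0.07.

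Of 10 TALE homeobox genes tested, Meis1 included, 8 were higher, with a median of 0.09. The paralogs Meis2 and Meis3 differed by 0.01 ± 0.15 and 0.08 ± 0.16. Meis2 had 12.57, 12.71, 12.31, 12.80 and 12.46 in homozygotes, against 12.16, 12.41, 12.81, 12.74 and 12.58 in wild types. Of the Pbx cofactors, Pbx2 differed by 0.11 ± 0.11 and Pbx3 by 0.23 ± 0.13, and Pknox1 and Pknox2, further TALE genes, by -0.01 ± 0.12 and 0.14 ± 0.10. Only Mkx, a TALE gene of tendon and muscle, reached an unadjusted p under 0.05 upward, at 0.42 ± 0.15. Of 7 mouse counterparts of genes associated with restless legs syndrome, 4 were higher and 3 lower, and Meis1 was the only one at an unadjusted p under 0.05. Of the genes on either side of Meis1 on chromosome 11, 23 were tested, of which 17 were higher and 6 lower. At an unadjusted p under 0.05, 5 (21.7%) were higher and 1 (4.35%) lower, against 5.32% and 6.46% of all genes. The median of these neighbours was 0.07, and it was 0.03 after the part that goes with gene span was removed. Their median span was 50.1 kb, against 21.8 kb over all genes. Etaa1, a DNA damage response gene, was higher by 0.44 ± 0.12, Spred2, an inhibitor of Ras signalling, was higher by 0.40 ± 0.14, and Mdh1, cytosolic malate dehydrogenase, differed by -0.38 ± 0.14. Etaa1 had 9.41, 9.85, 9.49, 9.55 and 9.65 in homozygotes, against 8.83, 9.45, 9.13, 9.11 and 9.21 in wild types. Only homozygote male 1 lay within the wild type range.

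Genes of the extracellular matrix and its receptors leaned upward. Of 42 tested, 36 were higher in homozygotes, with a median of 0.19. At an unadjusted p under 0.05, 12 (28.6%) were higher, against 5.32% of all genes. Thbs1, a matrix glycoprotein, had 7.38, 7.04, 5.37, 7.16 and 7.51 in homozygotes, against 4.68, 4.99, 6.10, 6.95 and 6.20 in wild types, a difference of 0.85 ± 0.20. The low values were those of litter 551 in both genotypes. Itga5, the alpha chain of the fibronectin receptor, was higher by 0.49 ± 0.14. Sparc, a collagen-binding glycoprotein, had 11.90, 12.11, 12.42, 11.998 and 12.36 in homozygotes, against 12.23, 11.90, 11.58, 11.77 and 11.70 in wild types, a difference of 0.45 ± 0.13. Litter medians were 0.32 in 509, 0.26 in 542 and 0.08 in 551, and without the 3 arrays named above the median was 0.27.

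Collagen genes were higher in 23 of 28 cases, with a median of 0.21. At an unadjusted p under 0.05, 7 (25%) were higher and 1 (3.57%) lower, against 5.32% and 6.46% of all genes. Col4a1 and Col4a2, the paired chains of basement membrane collagen, were higher by 0.43 ± 0.12 and 0.44 ± 0.14. Col4a1 had 11.52, 11.35, 11.50, 11.75 and 11.67 in homozygotes, against 11.35, 10.77, 11.28, 11.43 and 11.23 in wild types. Col1a1, of fibrillar collagen, was higher by 0.69 ± 0.22 and Col15a1 by 0.57 ± 0.19. Collagen medians were 0.33 in litter 509, 0.34 in 542 and -0.09 in 551. Markers of the meninges, mesenchyme and pericytes, the cells that lie over and around the brain's vessels, moved with these genes. Of 27, 19 were higher, with a median of 0.19, and 6 (22.2%, against 5.32% of all genes) were higher at an unadjusted p under 0.05. Foxc1, a transcription factor of the meninges, was higher by 0.57 ± 0.17. The mean of the 27 markers ran from -0.18 to 0.22 over homozygotes and from -0.29 to 0.18 over wild types, and without homozygote female 2 their median was 0.04. The part of these markers in the collagen and matrix values was not tested. Endothelial genes were higher in 13 of 23 cases, with a median of 0.06, which was -0.00 without homozygote male 3 and 0.15 without homozygote male 2. The 4 at an unadjusted p under 0.05 (17.4%, against 5.32% of all genes) were all higher. They were Pecam1 at 0.41 ± 0.14, Ets1 at 0.38 ± 0.09, Sox7 at 0.25 ± 0.10 and Eng at 0.25 ± 0.11.

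Among signalling pathways, fibroblast growth factor genes were higher in 15 of 18 cases, with a median of 0.18. Within litters, the median was -0.02 in 509, 0.03 in 542 and 0.38 in 551. At an unadjusted p under 0.05, 4 (22.2%) were higher and 1 (5.56%) lower, against 5.32% and 6.46% of all genes. Next to Fgfr1, the receptor gene Fgfr2 was higher by 0.34 ± 0.11, whereas the ligand gene Fgf15 differed by -0.33 ± 0.10. Fgfr2 had 8.59, 8.58, 8.54, 8.54 and 8.82 in homozygotes, against 8.28, 8.17, 8.27, 8.60 and 8.37 in wild types, and only wild type male 3 lay within the homozygote range. Retinoic acid, a ligand made from vitamin A, acts through the RAR and RXR receptors. Its receptor genes Rarg, Rara and Rxra were higher by 0.57 ± 0.25, 0.42 ± 0.15 and 0.34 ± 0.15, and Stra6, the receptor for the retinol carrier, by 0.34 ± 0.15. Of 11 retinoic acid genes 6 were higher, with a median of 0.22 that was -0.03 at its lowest when 1 array was left out.

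Wnt genes were higher in 25 of 35 cases, with a median of 0.07, which was 0.15 without homozygote male 3, and with Wnt5b at 0.37 ± 0.11 and the receptor gene Fzd7 at 0.33 ± 0.14. Notch pathway genes had a median of 0.13, which was 0.03 without homozygote male 2, 0.02 in males only and 0.04 without the 3 arrays of lowest histone signal, with Notch3 at 0.39 ± 0.14 and Mfng, a modifier of Notch, at -0.52 ± 0.17. BMP and TGF-beta genes had a median of 0.09, which was -0.01 without wild type male 2 and 0.01 in males only, with Ltbp1, which stores TGF-beta in the matrix, at 0.42 ± 0.12, and with the BMP targets Id1 and Id2 at -0.37 ± 0.15 and -0.37 ± 0.14. Hedgehog genes had a median of 0.02. Gli3, a transcription factor of that pathway, had 8.11, 8.14, 5.88, 8.45 and 7.94 in homozygotes, against 4.89, 5.19, 7.92, 8.19 and 7.81 in wild types, a difference of 0.57 ± 0.17. The 3 low arrays of both genotypes were those of litter 551. Outside that litter the Gli3 ranges overlapped.

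Hypoxia and glycolysis genes were higher in 17 of 25 cases, with a median of 0.09, and the mean over the list did not overlap between genotypes. It was 0.04, 0.08, 0.04, 0.07 and 0.04 in homozygotes, against 0.03, -0.05, -0.06, -0.06 and -0.15 in wild types. The gap was narrow, with homozygote male 1 at 0.037 and wild type male 1 at 0.030. The mean includes Pfkp, which was named because its own groups did not overlap, so this separation is not independent of Pfkp. Among the 69 lists, only this one, the platelet list and the interferon list had means without overlap. Epas1, which encodes the oxygen-regulated factor HIF-2 alpha, had 5.92, 5.87, 6.33, 6.73 and 6.32 in homozygotes, against 5.54, 5.21, 6.06, 6.24 and 5.50 in wild types. The median of the list was 0.03 in males only and 0.06 without homozygote male 2, and in the fit with an effect for each sex it was 0.16 in females and 0.004 in males. The Epas1 difference was 0.69 ± 0.16 (adjusted p = 0.322 by limma), and it was positive in all 3 litters. Cadherin and protocadherin genes were higher in 24 of 30 cases, with a median of 0.13, and Cdh11 and Cdh4 differed by 0.50 ± 0.20 and 0.37 ± 0.14, while Cdh22 differed by -0.54 ± 0.22.

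Blood and immune cell lists other than that of platelets had medians closer to 0. Blood stem and progenitor cell genes were lower in 10 of 14 cases, with a median of -0.09, which was 0.00 without homozygote male 3, and Cd34, a surface protein of these cells, differed by -0.46 ± 0.14. Macrophage and microglia genes were lower in 10 of 12 cases, with a median of -0.12. At an unadjusted p under 0.05, 5 (41.7%) were lower and 1 (8.33%) higher, against 6.46% and 5.32% of all genes. The median of the macrophage and microglia list was -0.25 without wild type male 3, -0.07 without homozygote male 2 and -0.05 without the 3 arrays of lowest histone signal. Besides Tyrobp, the Fc receptor genes Fcgr3 and Fcer1g differed by -0.40 ± 0.14 and -0.37 ± 0.15 and C1qb, of the complement, by -0.33 ± 0.14. Cx3cr1 and Aif1, further members of this list, differed by 0.07 ± 0.15 and -0.09 ± 0.16. All 6 neutrophil and mast cell genes tested were lower, with a median of -0.21 and with S100a8, a calcium-binding protein of neutrophils, at -0.996 ± 0.30. Red cell genes had 12 of 16 higher and none at an unadjusted p under 0.05, and the globin genes Hba-a1 and Hbb-y differed by -0.04 ± 0.09 and -0.02 ± 0.08. Interferon and antigen presentation genes were lower in 13 of 14 cases, with a median of -0.11, and next to Bst2, Isg15, a ubiquitin-like protein induced by interferon, differed by -0.55 ± 0.25. Their mean was -0.11, -0.28, -0.21, -0.12 and -0.04 in homozygotes, against 0.08, 0.06, 0.03, 0.39 and 0.08 in wild types. Every homozygote lay below every wild type in this mean, with homozygote female 2 at -0.040 and wild type male 2 at 0.028 the closest. The mean includes Bst2, which was named because its own groups did not overlap, so this separation is not independent of Bst2. Of the 69 lists, only this one, the platelet list and the hypoxia list had means without overlap. By gene span, 8 of the 14 genes fell in the shortest class, in which 26.7% of the genes were higher.

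**Figure D5:**
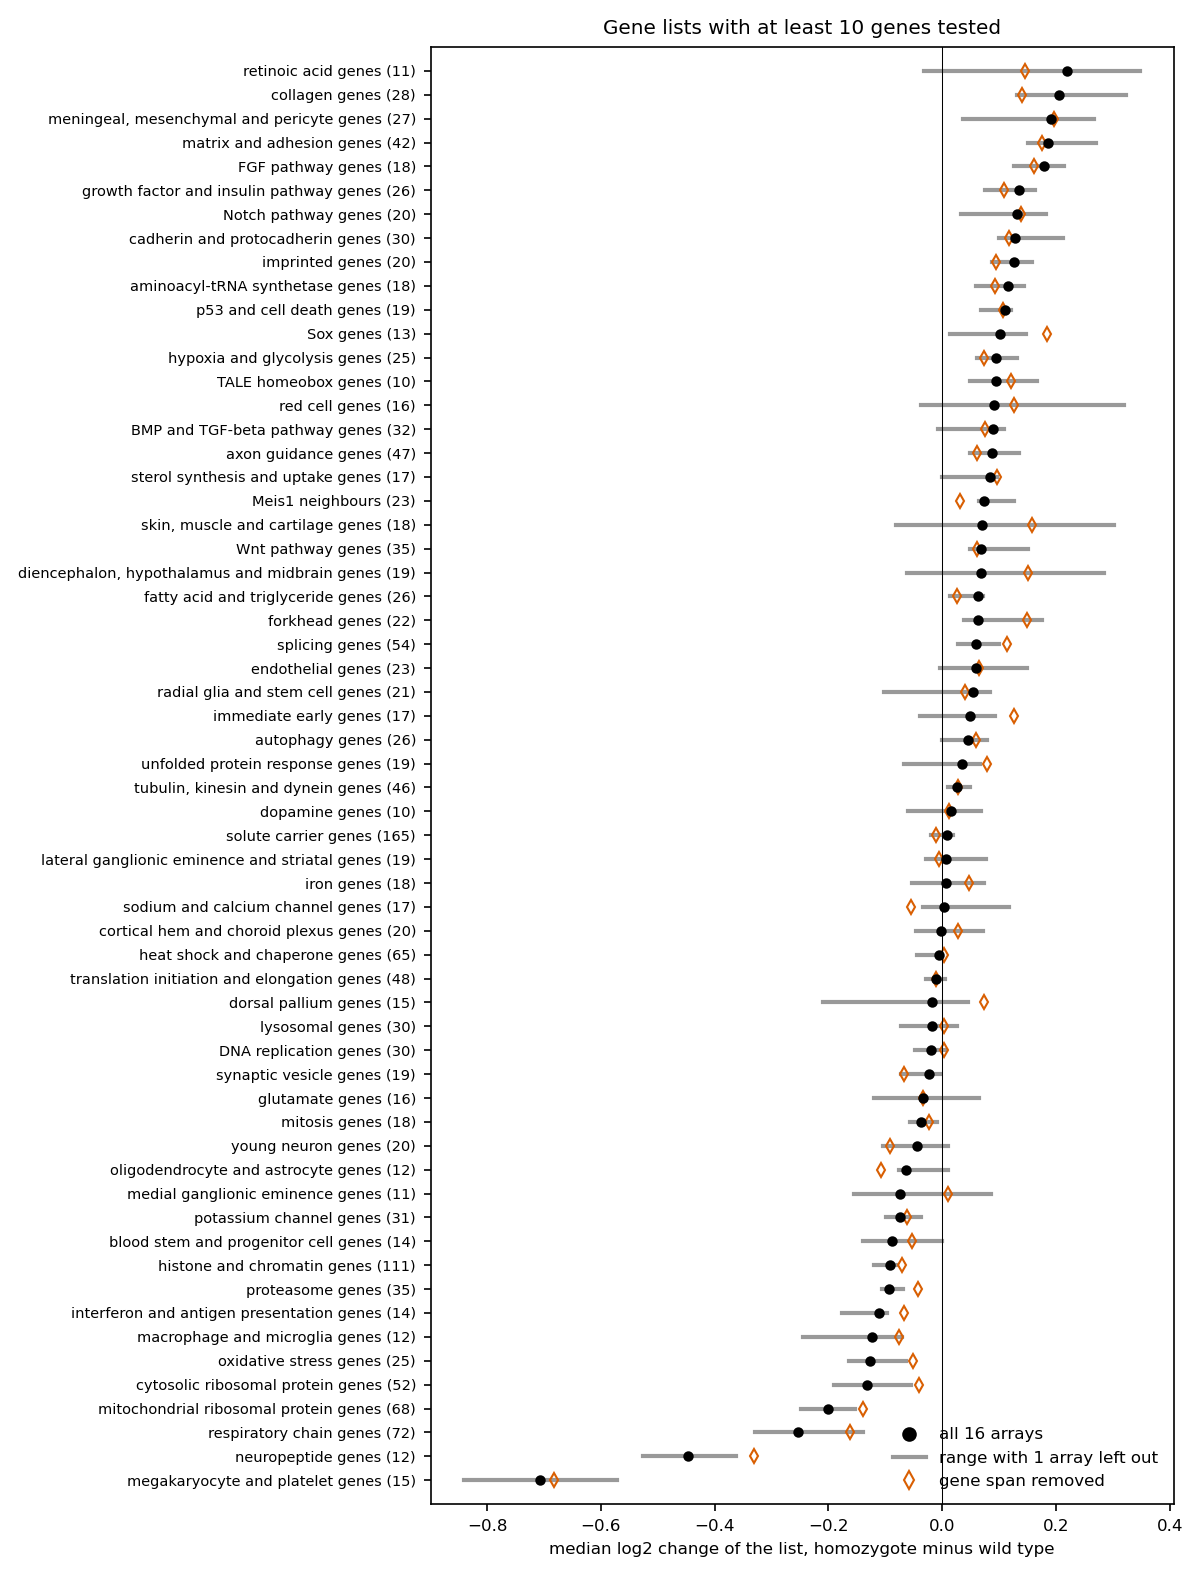
Median log2 difference, homozygote minus wild type, of each gene list with at least 10 genes tested, 1 row per list, where the line spans the medians with 1 array left out and the diamond is the median after the part that goes with gene span was removed. The platelet list lies lowest at -0.71 and the neuropeptide list next at -0.45, while the collagen and retinoic acid lists lie highest, at 0.21 and 0.22.

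Most of the remaining lists lay near 0. Heat shock and chaperone genes (65 tested) and translation factors (48 tested) both had a median of -0.01, solute carriers (165 tested) and iron genes (18 tested) both 0.01, and dopamine genes (10 tested) 0.02. Within these lists, Eif4ebp1, an inhibitor of translation initiation, differed by -0.58 ± 0.14 (adjusted p = 0.336 by limma). Its values were 9.72, 9.36, 8.97, 8.36 and 9.16 in homozygotes, against 9.52, 9.71, 9.05, 9.30 and 9.55 in wild types. Imprinted genes (20 tested) had a median of 0.13, growth factor and insulin pathway genes (26 tested) 0.14 and aminoacyl-tRNA synthetase genes (18 tested) 0.12. Among p53 and cell death genes, 14 of 19 were higher, with a median of 0.11, and Bak1, a mitochondrial death effector, was higher by 0.72 ± 0.23, whereas Bbc3, the p53 target Puma, differed by -0.39 ± 0.13. Of the chromatin genes outside the histones, Smarcd1, a subunit of SWI/SNF remodelling complexes, differed by 0.83 ± 0.23. It had 8.68, 9.02, 8.45, 9.10 and 9.75 in homozygotes, against 6.73, 6.90, 9.10, 9.06 and 9.13 in wild types, and its low wild types were again those of litter 551.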

How the data were processed

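RNA from forebrains of 16 embryos and from 7 adult brains was measured on Illumina bead arrays. The deposited non-normalized table holds linear intensity and a detection p-value for each probe and array, per the file headers. Signals were read with GenomeStudio 2011.1, per the submitters' processing notes. The authors' deposited processed table holds intensity after background subtraction and scaling whose method the sources used here do not state, and it served as an alternative.

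The 16 embryonic arrays were normalized with neqc (limma 3.58.1, R 4.3.3, offset 16), and probes with detection p under 0.05 on at least 5 arrays were kept, 14340 of 25697. Of all probes, 23978 had 1 gene symbol in the platform annotation, 0 had several and 1719 had none. The probe of highest mean signal stood for its gene. limma's lmFit and eBayes fitted genotype, sex and litter, two-sided, with Benjamini-Hochberg adjustment over all probes, tested on simulated data. A separate fit on the 7 adult arrays compared heterozygotes with wild types. To remove what goes with gene span, each array's median deviation in each of 20 bins of span was subtracted before the fit. The number of arrays limits the precision.

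Named genes were Meis1, those past the adjusted threshold, up to 15 in each direction whose groups did not overlap and whose sign held in 3 litters, and up to 4 of smallest unadjusted p under 0.05 in each of 69 lists, or the 2 of highest signal where none was under it. Other list members are named for their role, with their values known. The members and lists were chosen with earlier results of these data known, and the histone group was formed after seeing the values.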

Additional observations from a re-analysis of the deposited data

Results flagged for a closer look

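In each genotype and for each of the 32 probes of the named genes, an array was looked up when its gap to the nearest of the other arrays of its group was a large share of the group's range by Dixon's test. This marked 5 of 64 groups, where chance alone marks about 1 in 20.

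Treml1 in homozygote male 2 was 5.73, above the other homozygotes at 4.80 to 4.95 and below all wild types. Irx5 in wild type female 2 was 6.81, below the other wild types at 7.37 to 7.51. Tmem255a in homozygote male 3 was 9.04, above the other homozygotes at 8.52 to 8.61. Ints5 in homozygote female 2 was 9.57, above the other homozygotes at 9.25 to 9.31. Yipf3 in wild type male 1 was 10.46, above the other wild types at 10.15 to 10.21. All 5 arrays stood out in the direction of their gene's difference except Treml1, where the array lay toward the wild types.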

How the results depend on the processing

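The number of probes that rose, 1 in the fit described, was 0 with only homozygotes and wild types, without litter 549, in males only, without the litter term, without the sex term, with the replicate number as a block, without background correction, from the deposited processed table, without the detection filter, with a trended and robust variance, and without the 3 arrays of lowest histone signal. It was 2 with array weights and 0 to 2 with 1 array left out. The number that fell, 6, was 2 in males only, 3 without background correction, 4 without litter 549 and without the detection filter, 8 with array weights, and 5 without the litter term, with the replicate block, with probes of a gene averaged and without the 3 arrays. It was 5 to 8 with 1 array left out and 6 in the other alternatives. The Meis1 difference lay between -1.30 and -1.004 over 34 alternatives, and in males only, with fewer arrays, it was -1.24 (adjusted p = 0.113 by limma). Of the 34 alternatives, Ppbp passed the adjusted threshold in 34, Meis1 and Treml1 in 33, Gp9 in 28, Alox12 in 25 and Lipa in 9. No value of a called gene changed sign. The cause of these changes was not tested. The median kept its sign in every alternative for 33 of 69 lists. With the replicate number as a block, 0 probes rose, 5 fell and Meis1 was at -1.18. The numbers were not taken to pair embryos, since the correlation of same-numbered pairs ran from -0.457 to 0.469. Span removal and the 3 arrays left out were chosen after seeing the data. The files give no slide, so the slide block was not run. Probes near background limit low differences.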

Other observations

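Of the 15 higher genes named for groups that did not overlap, 5 (Dhx29, Pfkp, Nid1, Secisbp2 and Gtpbp4) lie on chromosome 13. On that chromosome 344 genes were tested. At an unadjusted p under 0.05, 26 of them (7.56%) were higher and 25 (7.27%) lower in homozygotes, against 5.32% higher and 6.46% lower over all 9731 genes, and the median difference was -0.01. The groups did not overlap for 5 higher genes of the chromosome, against 26 (0.267%) over all genes. Their shared chromosome was noticed after the values were seen, and no test was made of it.

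Markers of tissue next to the brain varied by litter. Of 18 skin, muscle and cartilage genes, 11 were higher in homozygotes, with a median of 0.07 that was 0.38 in litter 509, 0.37 in litter 542 and -0.36 in litter 551. En1, a homeobox gene of the midbrain and hindbrain, had 6.89, 6.45, 6.34, 7.21 and 7.33 in homozygotes, against 6.96, 6.13, 5.78, 6.52 and 6.04 in wild types, a difference of 0.68 ± 0.25.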
